A study of Mus musculus with 5 samples.

Results

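The genes described are the AP-1 and immediate early genes Fos, Fosb, Jun, Junb, Jund, Atf3, Egr1, Ier2, Dusp1 and Zfp36, chosen by name. They are 10 of 17756 mouse genes measured on Affymetrix arrays, and each had 1 probe set with a single gene symbol. The arrays were made from cells of E11.5 embryos of strain C57Bl/6. The aorta-gonad-mesonephros (AGM) region, where the first definitive blood stem cells form, was cut out and broken up with DNase I, collagenase IV and hyaluronidase. Cells carrying VE-cadherin, an endothelial protein, and CD45, a protein of all leukocytes, were sorted on a FACSAria and cultured in IMDM with fetal serum. The IFNa group (n = 3, replicates 1, 2 and 3) was kept for 4 hours with 0.5 ng/ml of interferon-alpha, and the vehicle group (n = 2, replicates 2 and 3) for 4 hours with vehicle alone. The labels call the replicates biological but do not say whether litters were separate or pooled, so p-values measure the spread between these samples. Enzymes, sorting and serum were common to both groups.

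Immediate early genes are transcribed within minutes of a growth factor, serum, cytokine or stress signal, from transcription factors already present in the cell and without new protein synthesis. Fos and Jun proteins pair through leucine zippers into AP-1, which binds the TRE and, with ATF partners, the related CRE. The kinases ERK, JNK and p38 drive them, Dusp1 switches those kinases off, and Zfp36 (tristetraprolin) speeds the decay of AU-rich messenger RNAs, so the response normally ends quickly. Enzymatic dissociation and cell sorting are well known to induce these genes in many tissues, and macrophages express several of them strongly.

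The promoters of such genes often carry the elements through which these signals act, and 5 stretches are shown for that reason. They come from RefSeq (GRCm38.p6), which held a promoter for 8 of the 10 genes, all but Egr1 and Ier2. All are written 5′ to 3′ on the strand of the gene, and their positions count back from the RefSeq start, so that none enters the transcript. The Fos stretch is chr12:85473800-85473889 (plus strand), with the CRE core TGACG and the TATA box TATAA in capitals. The Fosb stretch is chr7:19310046-19310135 (minus strand), with the CRE core and the EGR site GCGNGGGCG in capitals. The Jun stretch is chr4:95052223-95052312 (minus strand), with the TRE-like site TGACATCA in capitals. The Zfp36 stretch is chr7:28379229-28379348 (minus strand), with, from left to right, an EGR site, a CArG box (the serum response element) and the GAS motif TTCNNNGAA in capitals. The Dusp1 stretch is chr17:26508573-26508632 (minus strand) and begins 160 bases before the start, with the CRE TGACGTCA in capitals.
Fos: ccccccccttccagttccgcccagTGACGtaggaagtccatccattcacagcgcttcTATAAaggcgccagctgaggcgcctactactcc
Fosb: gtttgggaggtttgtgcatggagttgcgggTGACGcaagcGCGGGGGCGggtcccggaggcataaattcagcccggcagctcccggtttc
Jun: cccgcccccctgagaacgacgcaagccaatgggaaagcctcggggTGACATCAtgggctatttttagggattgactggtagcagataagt
Zfp36: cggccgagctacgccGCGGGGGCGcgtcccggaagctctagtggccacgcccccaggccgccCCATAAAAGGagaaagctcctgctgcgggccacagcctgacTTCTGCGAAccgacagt
Dusp1: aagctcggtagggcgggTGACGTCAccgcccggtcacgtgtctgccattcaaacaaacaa

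Each motif was searched on both strands in the 250 bases before the start, for these 8 genes and for all 32851 promoter windows of the table. The CArG box was in Zfp36 alone of the 8 and in 1.47% of all windows. The CRE was in Dusp1 alone and in 1.55% of windows, and its core TGACG, which lies within the CRE, was in 5 of the 8 (Atf3, Dusp1, Fos, Fosb and Junb) and in 17.8% of windows. The EGR site, which EGR1 itself can bind, was in Fosb and Zfp36 and in 4.7% of windows. The TRE-like site was in Jun alone and in 2.93% of windows, whereas the TRE proper (TGANTCA) was in 0 of the 8 and in 6.75%. Of the motifs tied to interferon signalling, the ISRE (GAAA repeated, separated by any 2 bases) was in 0 of the 8 and in 2.98% of windows, and the GAS motif was in Zfp36 alone and in 7.02%. Jund had no match to any of the motifs, and Atf3 and Junb had only the CRE core. No stretch is shown for these genes, and every stretch shown holds a match. A match describes letters in this window and not a site in use. Sequence further upstream was not searched, so a missing match does not mean that a gene lacks the element.

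The deposited values are log2 probe set signals made with RMA, with array medians of 4.98 to 5.15. Signals of different probe sets cannot be read as relative amounts of messenger RNA. Brightness is given as a gene's percentile among all 17756 genes on the same array, which ranks signals and carries the same limit. No detection calls were used, and precision is limited by having only 5 arrays. The sort markers read 6.23 to 9.20 (Cdh5, VE-cadherin) and 5.35 to 8.95 (Ptprc, CD45), and the macrophage receptor Csf1r 14.26 to 14.69. CD45 was lower on every IFNa array, at 5.85, 7.03 and 5.35 against 7.23 and 8.95 with vehicle, a difference of -2.02 ± 0.75 that missed the threshold (limma adjusted p = 0.441). The labels name hematopoietic stem cells, and 9 stem and progenitor markers were looked up. Kit lay between the 34.1 and 73 percentile, Runx1 between 81.1 and 96.2, Spi1 between 85.4 and 89.0 and Gata2 between 63.6 and 73.2. Cd34 lay between 46.1 and 82.4, Myb between 45.2 and 85.7, Gfi1 between 52.0 and 96.6 and Hlf between 36.0 and 58.5. Only Mecom fell below the 20th percentile of all values, on 2 arrays. Which cells the RNA came from was not tested. In bulk RNA, fewer cells of a type and less RNA per cell cannot be told apart.

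After sort and culture, 7 of the 10 genes gave bright signals on every array of both groups. Fos, Jun, Jund, Egr1, Atf3, Dusp1 and Zfp36 lay between the 94.4 and 99.8 percentile of the genes on each of the 5 arrays. Zfp36 never fell below the 99.3 percentile. Fosb lay lower, between the 74.3 and 86.4 percentile, and Ier2, a small nuclear regulator that is usually induced beside Fos, between 64.5 and 71.3. Junb was the dimmest, between the 35.3 and 45.3 percentile, although none of its 5 values fell below 3.35, the 20th percentile of all values. Whether a dim row means little messenger RNA or a weak probe set cannot be told apart with 1 probe set per gene. Cells taken before the sort or the culture are not analysed here, so what these steps did to the levels was not measured.

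**Figure D1:**
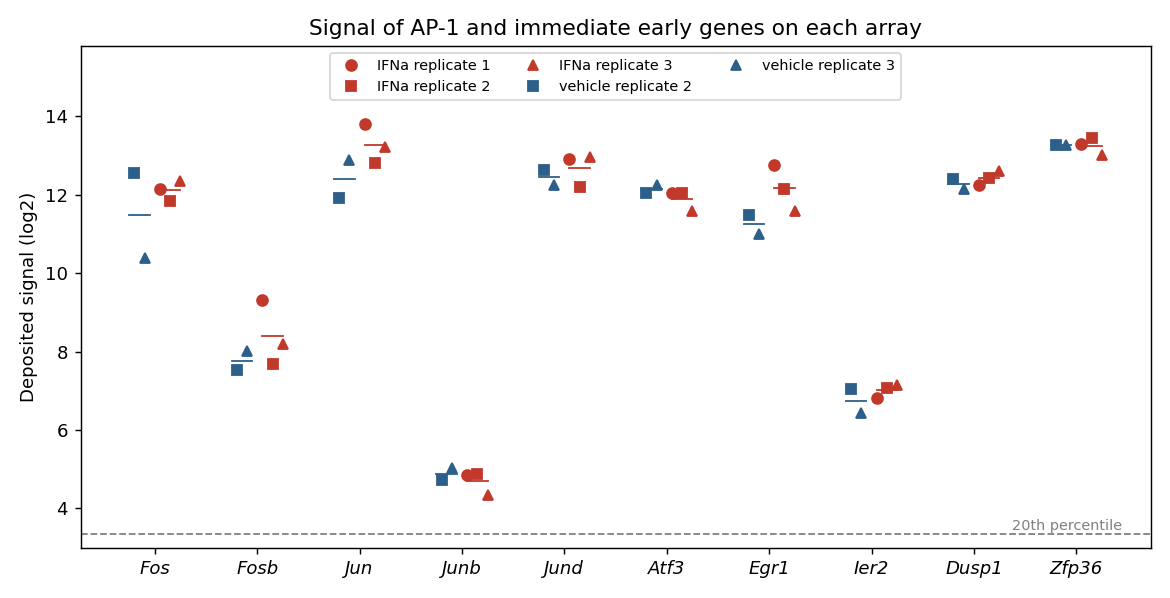
Deposited signal (log2) of the 10 AP-1 and immediate early genes on each of the 5 arrays, with vehicle in blue, IFNa in red, marker shape for the replicate number and a short line at each group mean. The groups overlap for 9 of the 10 genes, Egr1 is the exception, and Fos on vehicle replicate 3 (10.40) lies far below the other vehicle array (12.56).

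IFNa and vehicle arrays were then compared in 1 limma fit over all 17756 genes, in which a gene was called at a Benjamini-Hochberg adjusted p under 0.05. Of the 10 genes 0 were called, against a background of 0.135% of all genes, and 0 had an unadjusted p under 0.05 against 10% of all genes. With median centring the latter count was 2 of 10 (Egr1 and Jun) against 9.67% of all genes, and still 0 were called. Their adjusted p values ran from 0.512 to 0.986 in limma. The difference, IFNa minus vehicle, was above 0 for 7 genes and below 0 for 3, with a median of 0.26 beside -0.044 over all genes. The brightest 10% of all genes, which hold 7 of the 10, had a median of 0.15. In simulated data for this comparison over 17756 genes, limma called 20.8% of genes changed by 2 and 74.4% of those changed by 4 on the log2 scale, so most genes changed by 2 were missed.

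Among the FOS proteins, which enter AP-1 only as partners of a JUN protein, Fos read 12.15, 11.85 and 12.37 on the IFNa arrays and 12.56 and 10.40 on the vehicle arrays. Both the highest and the lowest value belonged to the vehicle group, and the IFNa arrays lay close together between them. The difference was 0.64 ± 0.60 (SE), a 1.56-fold higher mean with IFNa, with a 95% interval of -0.80 to 2.08 and a limma adjusted p of 0.822. It rests on the vehicle arrays, since it was 1.72 without vehicle replicate 2 (adjusted p = 0.133, limma) and -0.44 without vehicle replicate 3. Permuting the array labels in all 10 ways gave an exact two-sided permutation p of 0.7, where 0.1 is the smallest this design allows. On vehicle replicate 3 the 9 heat shock and dissociation stress genes also had their lowest mean signal, 9.70, against 10.37 on vehicle replicate 2 and 10.30 to 10.84 on the IFNa arrays, and 5 of the 9 were lowest there. CD45 (Ptprc) was highest on the same array, at 8.95. The stem and progenitor markers had their lowest mean there, 6.15 against 7.43 on vehicle replicate 2 and 6.49 to 7.07 on the IFNa arrays. The erythroid markers had their highest, 6.51 against 5.59 and 4.96 to 5.79. Macrophage, megakaryocyte and lymphoid marker means were also highest there, at 11.59, 6.45 and 4.74. The part of all these genes in the Fos value was not tested.

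Fosb, the close relative of Fos, read 9.31, 7.69 and 8.20 on the IFNa arrays and 7.53 and 8.02 on the vehicle arrays. IFNa replicate 1 stood above the rest, and the other IFNa arrays lay on both sides of vehicle replicate 3. The difference was 0.63 ± 0.63, which missed the threshold (limma, adjusted p = 0.838) and was 0.17 without IFNa replicate 1. Vehicle replicate 2, the highest for Fos, was the lowest for Fosb.

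The JUN proteins can pair with each other as well as with FOS, and Jun, the main target of JNK, read 13.80, 12.82 and 13.23 on the IFNa arrays and 11.93 and 12.88 on the vehicle arrays. The IFNa arrays were high and vehicle replicate 2 was low, but vehicle replicate 3 lay above IFNa replicate 2, so the groups overlapped. The difference was 0.88 ± 0.38, a 1.84-fold higher mean, with an interval of -0.037 to 1.79 and a limma adjusted p of 0.519. It stayed above 0 with each array left out in turn, at 0.40 (without vehicle replicate 2) to 1.35 (without vehicle replicate 3).

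Jund, the JUN member that is usually expressed in resting cells and changes least on stimulation, read 12.92, 12.21 and 12.96 on the IFNa arrays and 12.63 and 12.26 on the vehicle arrays. IFNa replicate 2 was the lowest of the 5, below both vehicle arrays, and the groups overlapped. The difference was 0.25 ± 0.30, with an interval of -0.47 to 0.96 that excludes a 2-fold change in either direction. Junb, which often opposes Jun in proliferation, read 4.85, 4.87 and 4.35 on the IFNa arrays and 4.72 and 5.04 on the vehicle arrays. The 5 dim values lay within 0.69 of each other and overlapped. The difference was -0.19 ± 0.35, and its interval of -1.01 to 0.64 excludes a 2-fold rise. The adjusted p values of Jund and Junb were 0.876 and 0.936 in limma.

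Atf3, a stress-induced partner of JUN that represses inflammatory genes in macrophages, read 12.05, 12.06 and 11.60 on the IFNa arrays and 12.04 and 12.25 on the vehicle arrays. IFNa replicate 3 was the lowest and vehicle replicate 3 the highest, while the remaining arrays, from both groups, lay at 12.04 to 12.06. The difference was -0.25 ± 0.27, with an interval of -0.89 to 0.40 and a limma adjusted p of 0.858.

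Egr1, a zinc finger transcription factor driven by serum response factor and ERK, read 12.77, 12.15 and 11.60 on the IFNa arrays and 11.49 and 11.003 on the vehicle arrays. Every IFNa array was above both vehicle arrays, although IFNa replicate 3 exceeded vehicle replicate 2 by a small margin. Egr1 was the only gene of the 10 whose groups did not overlap, where 25.6% of all genes had no overlap in either direction. The difference was 0.93 ± 0.40, a 1.90-fold higher mean, with an interval of -0.026 to 1.88. Its adjusted p was 0.512 in limma, and the exact permutation p was 0.2. Dropping single arrays gave 0.63 to 1.21. The mean signal of 9 macrophage markers was lower on the IFNa arrays (10.93 to 11.38) than on the vehicle arrays (11.55 to 11.59), although 7 of the 9 differed by less than 0.5 and only Timd4, at -2.54 ± 0.91, did not overlap. The heat shock and dissociation genes gave 10.30 to 10.84 on the IFNa arrays, which takes in vehicle replicate 2 (10.37) but not vehicle replicate 3 (9.70), and 3 of these 9 did not overlap, all with IFNa higher. CD45, as given above, and the progenitor marker Cd34, at -2.61 ± 0.63 (limma adjusted p = 0.268), were lower on every IFNa array. The 9 stem and progenitor markers did not share 1 direction, with 5 differences above 0, 4 below and a median of 0.16. Gfi1 (2.67 ± 1.39) and Spi1 (0.55 ± 0.44) were higher on every IFNa array. Of 6 endothelial genes 2 had a difference above 0 and 4 below, and Tek (2.15 ± 0.72) was higher on every IFNa array. The 6 granulocyte and monocyte genes had a median of 0.68, with 4 above 0 and 2 below. The 6 mesenchymal genes had a median of 1.13, also with 4 above 0 and 2 below. Medians were -0.18 for mast cell, -0.66 for erythroid, 0.25 for megakaryocyte and -0.26 for lymphoid genes. The part of these genes in the Egr1 and Jun values was not tested.

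Ier2 read 6.82, 7.07 and 7.15 on the IFNa arrays and 7.04 and 6.45 on the vehicle arrays. Vehicle replicate 3 was the lowest and the other vehicle array lay among the IFNa arrays. The difference of 0.27 ± 0.47 became -0.025 without vehicle replicate 3, and the adjusted p was 0.929 in limma.

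The genes that end the response spanned 0.46 (Dusp1) and 0.45 (Zfp36) from the lowest to the highest of the 5 arrays. Dusp1, the phosphatase that inactivates p38, JNK and ERK, read 12.25, 12.42 and 12.60 on the IFNa arrays and 12.41 and 12.14 on the vehicle arrays. The values of both groups interleaved. The difference was 0.15 ± 0.23 with an interval of -0.41 to 0.70, and its sign turned with quantile normalization (-0.12). Zfp36 read 13.29, 13.46 and 13.01 on the IFNa arrays and 13.28 and 13.27 on the vehicle arrays. The vehicle arrays read nearly the same and lay inside the range of the IFNa arrays. The difference was -0.025 ± 0.19 with an interval of -0.48 to 0.43, and its sign turned without IFNa replicate 3 (0.10), with median centring (0.058) and with array weights (0.031). The adjusted p values were 0.919 and 0.986 in limma. In the fit reported, the interval of 4 of the 10 genes (Jund, Atf3, Dusp1 and Zfp36) excluded a 2-fold change in both directions. For Fos, Fosb, Jun, Egr1 and Ier2 it did not exclude a 2-fold rise. These exclusions belong to that fit and depend on the processing. Jund differed by 0.33 ± 0.30 with median centring and 0.25 ± 0.37 without a variance trend, and Atf3 by -0.46 ± 0.26 with quantile normalization.

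**Figure D2:**
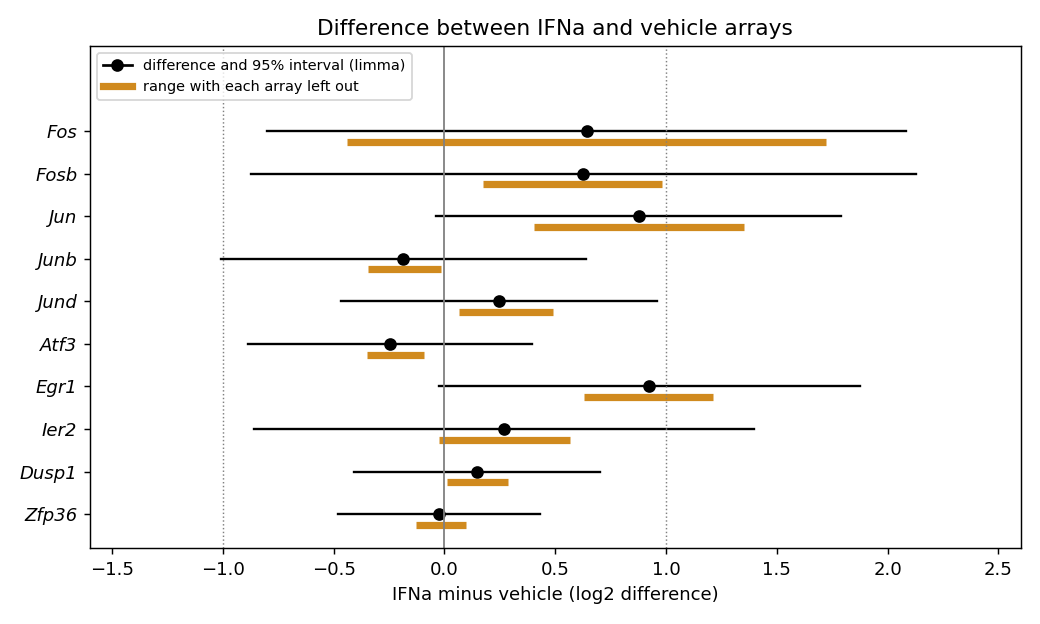
Difference between the IFNa and vehicle means (log2) of the 10 genes as black points with 95% intervals from limma, and as orange bars the range of the difference with each of the 5 arrays left out in turn. Dotted lines mark a 2-fold change, every interval includes 0, and the bars of Fos, Ier2 and Zfp36 cross 0.

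The 10 genes also varied unequally between arrays of 1 group. The within-group SD was largest for Fos (0.91), Fosb (0.71), Jun (0.56) and Egr1 (0.52) and smallest for Dusp1 (0.18) and Zfp36 (0.19), with a median of 0.33 beside 0.42 over all genes. Since dim and bright genes differ in spread, each gene was set beside the 500 genes nearest to it in mean signal. The SD of Fos exceeded that of 89.8% of its neighbours, and that of Jun 78.6%. The SD of Atf3 exceeded that of 23% of its neighbours, that of Zfp36 23.4%, that of Dusp1 16.6% and that of Ier2 9.2%. In all, 5 genes (Fos, Fosb, Jun, Jund and Egr1) were above the median SD of their neighbours and 5 (Junb, Ier2, Atf3, Dusp1 and Zfp36) below it. With 3 and 2 arrays a group these SDs are themselves imprecise, and no test was made. The spread of Fos lay almost wholly in the vehicle group, with an SD of 1.53 (n = 2) against 0.26 (n = 3) with IFNa. For Fosb it lay in the IFNa group (0.83 against 0.35).

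**Figure D3:**
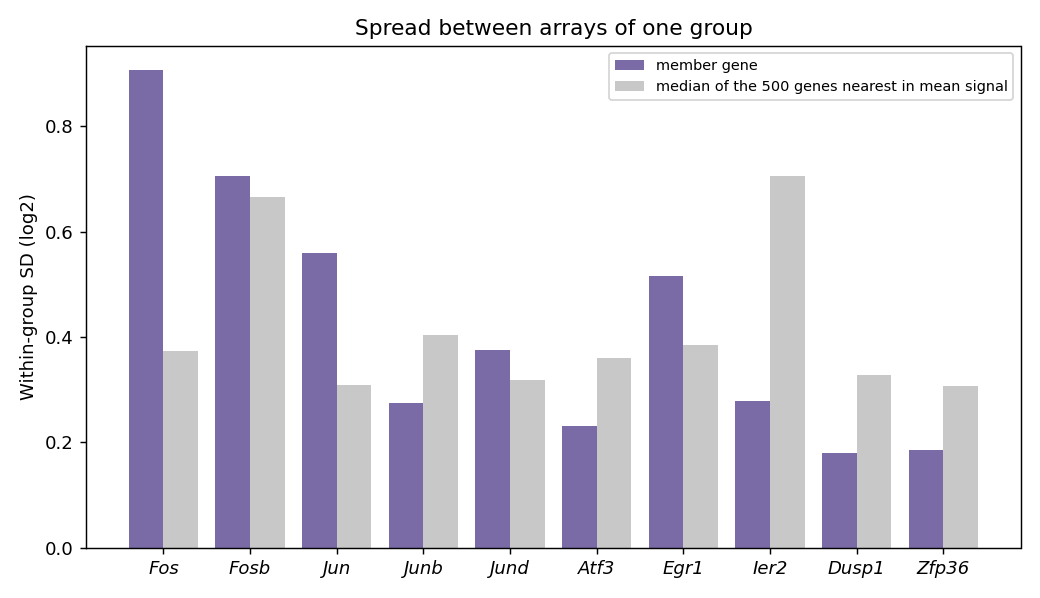
Within-group SD (log2) of each of the 10 genes (purple bars) beside the median within-group SD of the 500 genes nearest to it in mean signal (grey bars). Fos stands highest at 0.91 against 0.37, and Ier2 at 0.28 lies furthest below its neighbours at 0.71.

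No array was high or low for the whole group of genes. IFNa replicate 1 held the highest value of 3 genes (Fosb, Jun and Egr1), IFNa replicate 3 of 3 (Jund, Ier2 and Dusp1), vehicle replicate 3 of 2 (Junb and Atf3), and IFNa replicate 2 (Zfp36) and vehicle replicate 2 (Fos) of 1 each. Vehicle replicate 3 held the lowest value of 4 genes (Fos, Egr1, Ier2 and Dusp1), and over all genes it was lowest for 17.3% and highest for 28.9%. IFNa replicate 3 was lowest for 3 genes (Junb, Atf3 and Zfp36), vehicle replicate 2 for Fosb and Jun, and IFNa replicate 2 for Jund. IFNa replicate 1 was above the mean of all arrays for 8 of the 10 genes and vehicle replicate 3 for 3. It was lowest for 0 of the 10 on IFNa replicate 1, an array that over all genes was lowest for 27.2% and highest for 13.4%.

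Around these 10 genes, 123 of 132 further genes of the same pathways were measured, in 7 lists. Limma called 0 of the 123 in either direction, where 0.0169% of all genes were called higher and 0.118% lower, and 11 (8.94%) had an unadjusted p under 0.05 beside 10% of all genes. Among 13 other AP-1 and bZIP partner genes, 11 had a difference below 0. The median was -0.45, and with single arrays dropped -0.70 (without IFNa replicate 2) to -0.12 (without IFNa replicate 3). In this list 1 gene had an unadjusted p under 0.05. That gene was Mafg, a small MAF partner, at -1.24 ± 0.47 (adjusted p = 0.448, limma). The FOS-related Fosl1 and Fosl2 differed by -1.49 ± 0.82 and -0.80 ± 0.62, and Batf2, an interferon-inducible AP-1 partner, by -1.44 ± 0.69. These 3 missed the threshold (adjusted p = 0.63, 0.763 and 0.562, limma), and the arrays of the groups overlapped for each.

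Among the 37 other immediate early genes, 22 had a difference above 0 and 15 below. Their median was 0.30, or 0.063 with quantile normalization and 0.077 without vehicle replicate 2. Of them 6 (16.2%) had an unadjusted p under 0.05 beside 10% of all genes, and 15 (40.5%) had no overlap between the groups beside 25.6%, 10 with IFNa higher and 5 with IFNa lower. Egr2, a relative of Egr1 that macrophages also use, read 11.47, 11.499 and 10.43 on the IFNa arrays and 8.87 and 9.10 on the vehicle arrays. Every IFNa array lay well above both vehicle arrays. The difference was 2.15 ± 0.47, with an interval of 1.03 to 3.27 and a limma adjusted p of 0.23, and it was 1.97 to 2.50 with each array left out. Arc, best known from neurons, read below both vehicle arrays in all IFNa samples and differed by -1.29 ± 0.37 (limma adjusted p = 0.348). Of the genes chosen by name, Ier5 differed by 1.06 ± 0.41 (no overlap, IFNa higher) and by 0.44 without vehicle replicate 3, Socs3, the feedback inhibitor of JAK-STAT signalling, by 0.82 ± 0.43 (no overlap, IFNa higher), and Myc by 0.63 ± 0.44. Ier3 differed by -1.02 ± 0.48 and Klf6 by -0.37 ± 0.20, both with no overlap and IFNa lower. Nr4a1, an orphan nuclear receptor, differed by -0.41 ± 0.60, Klf2 by 0.33 ± 0.51 and the antiproliferative Btg2 by -0.12 ± 0.61. Klf2 turned to -0.015 without IFNa replicate 3 and Btg2 to 0.31 without IFNa replicate 2.

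The inputs to the response had a median difference of -0.027 (0.056 with median centring) over 22 genes, 11 above and 11 below 0, with 1 at an unadjusted p under 0.05. Creb1, the kinase-activated factor that binds the CRE, read 11.31, 11.99 and 12.25 on the IFNa arrays and 10.00 and 8.24 on the vehicle arrays. Vehicle replicate 3 was far below the rest, and vehicle replicate 2 also lay below every IFNa array. The difference was 2.73 ± 0.60 (adjusted p = 0.23, limma), 1.84 without vehicle replicate 3. The JNK gene Mapk9 differed by 1.96 ± 0.87 (adjusted p = 0.525, limma). It passed the threshold only without vehicle replicate 2, at 3.54 (adjusted p = 0.0489, limma), and was 0.39 without vehicle replicate 3. Srf, the serum response factor, differed by -0.14 ± 0.34, and the p38 gene Mapk14 by 0.50 ± 0.66. Both turned sign without vehicle replicate 3, to 0.0032 and -0.49. Of the 22 genes, 6 (27.3%) had no overlap between the groups, beside 25.6% of all genes.

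The 18 other feedback genes of the MAP kinases had a median of 0.039, with a range of -0.20 (without vehicle replicate 2) to 0.30 (without vehicle replicate 3) when single arrays were dropped, and with 9 above and 9 below 0 and 1 at an unadjusted p under 0.05. Dusp8 differed by -2.36 ± 0.87 with vehicle arrays at 7.20 and 3.92 and 2 of the 3 IFNa arrays below the 20th percentile of all values. It was called only without vehicle replicate 3, at -4.00 (adjusted p = 0.0185, limma), and was -0.71 without vehicle replicate 2. Dusp5 and Dusp6, phosphatases that act on ERK, differed in opposite directions, by 1.41 ± 0.60 and -1.05 ± 0.56, both without overlap (adjusted p = 0.505 and 0.616, limma). Dusp2, a nuclear phosphatase, differed by -0.14 ± 0.50, or 0.071 without IFNa replicate 3. Of the 18 genes, 4 (22.2%) had no overlap between the groups, beside 25.6% of all genes.

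On the side of messenger RNA decay, 8 genes had a median of 0.17, or -0.065 with quantile normalization. Of the 8, 2 (25%) had no overlap between the groups, beside 25.6% of all genes. Rc3h1 (roquin), which also destabilises inflammatory messages, had a difference of 1.20 ± 0.39 (limma adjusted p = 0.378) without overlap, and Khsrp, an AU-rich element binding protein, had one of -0.74 ± 0.41 (limma adjusted p = 0.628), also without overlap. The paralogs of Zfp36 differed by 0.045 ± 0.56 (Zfp36l1) and 0.67 ± 0.44 (Zfp36l2), and Zfp36l1 turned to -0.45 without vehicle replicate 3. The 12 known target messages of Zfp36 had a median of 0.11, or -0.13 with quantile normalization, with 0 at an unadjusted p under 0.05 in limma. Tnf, the classic target, differed by 0.19 ± 0.62, or -0.13 without IFNa replicate 1. The cytokine Il10 and the chemokine Cxcl1 ranked first and next by p in that list. They differed by 1.10 ± 0.46 and -0.86 ± 0.47 without overlap (adjusted p = 0.499 and 0.628, limma). Il10 was dim, with vehicle values of 3.36 and 3.52 just above 3.35, the 20th percentile of all values. Of the 12 targets, 2 (16.7%) had no overlap between the groups, beside 25.6% of all genes.

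The 13 AP-1 target genes had a median of -0.14, or 0.047 without IFNa replicate 1, 0.017 without IFNa replicate 2 and 0.016 without vehicle replicate 2, with 1 at an unadjusted p under 0.05. That gene was Mt2, a metallothionein also induced by metals and glucocorticoids, whose IFNa arrays all lay above the vehicle arrays, with a difference of 1.22 ± 0.50 (limma adjusted p = 0.493). Timp1, an inhibitor of matrix proteases, differed by -0.86 ± 0.47, or -0.095 without vehicle replicate 3. It was dim, with 3 of 5 arrays below the 20th percentile of all values, and differed by -0.68 with values raised to that level. Of the 13 genes, 2 (15.4%) had no overlap between the groups, beside 25.6% of all genes.

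**Figure D4:**
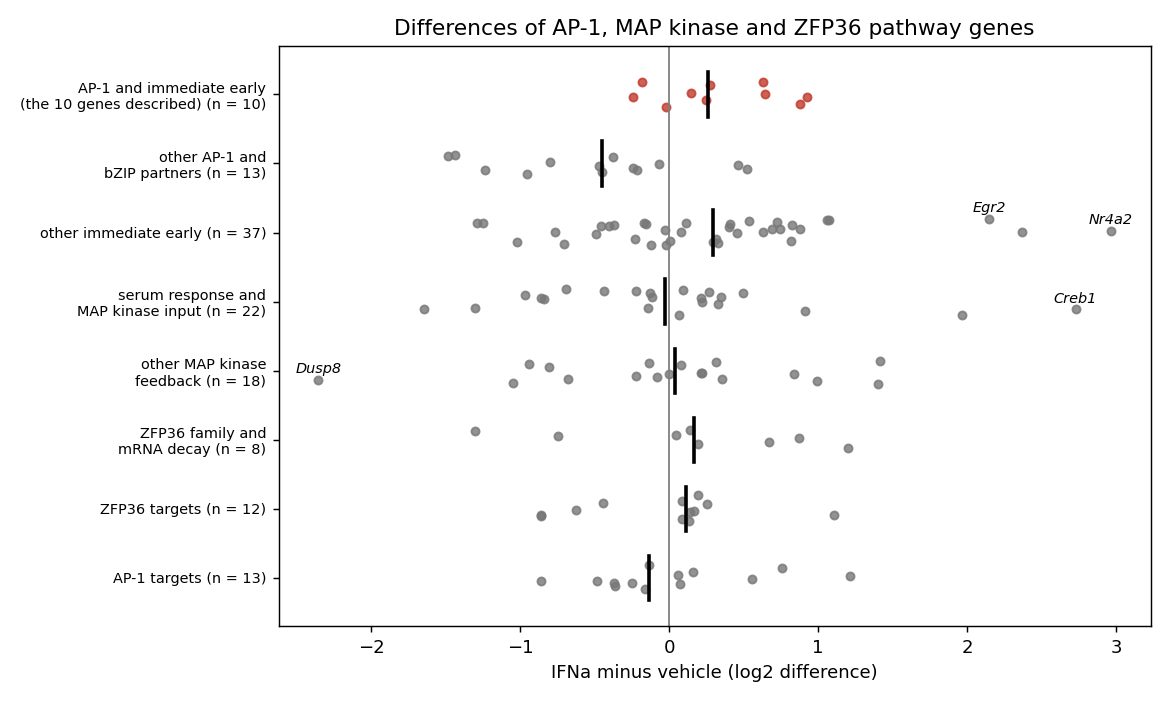
Difference between the IFNa and vehicle means (log2) for each measured gene of the 8 lists, with the 10 genes described in red and a black line at each list's median. Points are shifted up or down at random for visibility, and the medians lie between -0.45 (other AP-1 and bZIP partner genes) and 0.30 (other immediate early genes).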

How the data were processed

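Expression was measured on 5 Affymetrix arrays of sorted and cultured AGM cells. The authors deposited log2 signals, for which the submitters' processing notes name RMA. It was run with software and settings not given in the sources used here. Values ran from -1.95 to 15.6, and the step that set values below 0 is unknown here. Per the labels' protocols, RNA was amplified with a NuGen kit, which can alter low signals.

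Of 20881 rows, 17838 had 1 gene symbol in the platform annotation, 244 had several and 2799 had none here. The row with the highest mean was kept for 81 symbols with several rows, giving 17756 genes. IFNa was compared with vehicle in limma 3.58.1 under R 4.3.3, with eBayes moderating the variances along a trend in mean signal, two-sided, with Benjamini-Hochberg adjustment over all genes and moderated standard errors (SE). The fit was tested on 10 simulated sets.

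The 10 genes and all lists were chosen with earlier results of these data known. Other genes were named as the 2 with the smallest p of each list, none of which had a called gene, and as 21 fixed by name, of which 20 had a row. The alternatives were row averaging, genes above the median only, values raised to the 20th percentile, quantile normalization, median centring, 3 variance settings, replicate blocks and each array left out. Both groups have a replicate 2 and a replicate 3, and no label ties them. A vehicle replicate 1 is not analysed here. The labels' general treatment text names IFNa for every sample, so the titles and the treatment characteristic decided the groups.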

Additional observations from a re-analysis of the deposited data

How the results depend on the processing

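The count of 0 called genes among the 10 held under all 15 alternatives, and 6 of the 10 kept their sign in each. Dusp1 turned to -0.12 with quantile normalization and Zfp36 to 0.058 with median centring and 0.031 with array weights. With each array left out in turn Fos ranged from -0.44 to 1.72, Ier2 from -0.025 to 0.57 and Zfp36 from -0.13 to 0.10. The median of the 10 ranged from -0.0068 (without vehicle replicate 3) to 0.39 (without vehicle replicate 2) over all alternatives and was 0.13 with quantile normalization. The brightest 10% of all genes moved from 0.15 to -0.10 with quantile normalization. The dim gene filter left out Junb. Of the 10 genes, an unadjusted p under 0.05 was reached by Egr1 with array weights and without IFNa replicate 3, by Jun without IFNa replicate 2 and without vehicle replicate 3, and by Fos without vehicle replicate 2. A fixed replicate block turned the list medians of the feedback genes to -0.064, the Zfp36 targets to -0.038 and the AP-1 targets to 0.047.

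The replicate numbers shared by both groups gave correlations of 0.0024 and 0.043, and the random replicate block used a consensus correlation of 0.12. With 2 vehicle arrays these values cannot settle whether a number marks a pair. No label ties the replicate numbers, so they are taken as numbers only. A fixed replicate block on that number called 0 and 0 genes higher and lower over all genes (1441 at an unadjusted p under 0.05 in limma), and a random replicate block called 9 and 27. The fixed block gives the same differences as leaving out IFNa replicate 1. The counts also moved to 1 and 0 (dim genes left out), 0 and 0 (floor, 1463 at an unadjusted p under 0.05 in limma) and 1 and 2 (no trend), against 3 and 21 in the fit reported, and the cause was not tested, while row averaging, quantile normalization, median centring, robust variance and array weights gave 3 to 4 and 18 to 21. With each array left out the counts were 0 to 37 and 0 to 144. In the 7 other lists 0 to 1 genes were called higher and 0 to 2 lower with each array left out, and a lone vehicle array is then assumed to vary like the IFNa arrays. Zfp36l1 was -0.18, -0.14 and -0.23 with quantile normalization, array weights and the fixed block, and Tnf -0.060 and -0.13 with quantile normalization and the fixed block. Leaving out each array moved Zfp36l1 between -0.45 and 0.54, Tnf between -0.13 and 0.70, Klf2 between -0.015 and 0.63, Btg2 between -0.39 and 0.31, Dusp2 between -0.36 and 0.071, Srf between -0.28 and 0.0032, Mapk14 between -0.49 and 1.49, Cdh5 between -2.09 and 0.18, Egr4 between -0.31 and 0.025 and Nr4a3 between -0.26 and 0.90.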

Other observations

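The further relatives of Egr1 and Nr4a1 that follow, and the EGR corepressor Nab2, were chosen after their values were seen. Egr3 read 7.86, 7.32 and 9.38 on the IFNa arrays and 7.09 and 7.14 on the vehicle arrays. As with Egr1 and Egr2, every IFNa array was above both vehicle arrays, with a difference of 1.07 ± 0.70 and a limma adjusted p of 0.706. Egr4 overlapped, with a difference of -0.16 ± 0.43. Nab2, which EGR proteins induce and which then represses them, differed by 0.84 ± 0.57 and overlapped. None of these was called, so a common direction of Egr1, Egr2 and Egr3 is a description of 5 arrays. Among the NR4A orphan receptors, Nr4a2 read 11.08, 9.51 and 13.00 on the IFNa arrays and 8.18 and 8.28 on the vehicle arrays. Its difference was 2.97 ± 0.95 (adjusted p = 0.378, limma) and 2.06 to 3.81 with each array left out. Nr4a3 differed by 0.32 ± 0.64 and Nr4a1 by -0.41 ± 0.60, so the family did not share 1 direction.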
